A study of Mus musculus with 3 samples.

Results

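The spots described here are the 62 of 1561 spots in an E11.5 mouse embryo section that carried the highest share of 2 epithelial transcripts, Epcam and Sfn. Each spot with at least 1000 UMIs (molecular barcodes that count captured RNA molecules once) was scored by its summed Epcam and Sfn UMIs over its total, and the top 4% were taken. They were proposed as surface and oral epithelium, and are called epithelial spots below and set against the other 1499 spots of the same section. The study profiled frozen sections of embryonic mouse axial skeleton, 10 µm thick, by Visium, which captures polyadenylated RNA from tissue laid on barcoded spots 55 µm across. A single section per stage was analysed, from embryos of E11.5, E12.5 and E13.5 by the section titles, and no strain, genotype or treatment is named. With 1 section per stage, spots are not replicates, so no test was made and every interval below covers counting error only.

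Epcam, a cell adhesion protein of the epithelial surface, and Sfn, the epithelial 14-3-3 protein stratifin, chose the spots and are given only as a description. The 62 spots held 375 Epcam UMIs and 305 Sfn UMIs, against 417 and 254 in the 1499 other spots. Among the epithelial spots, 37 had both transcripts, 18 only Epcam and 7 only Sfn. The score was 1848 UMIs per 1000000 in the highest spot, 395 in the median spot and 219.9 in the last spot inside the threshold, and the first spot outside it had 216.6. The threshold therefore lies on a continuous slope, and the rest of the section still holds epithelial transcripts, which makes every ratio below a contrast with a mixed remainder.

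Epithelia are sheets of cells sealed by tight junctions, held together by adherens junctions and desmosomes, and anchored to a basement membrane. At this stage the embryo is covered by a thin surface ectoderm, which is beginning to turn into epidermis and also forms the oral lining, the nasal, ear and lens placodes and the ridge of the limb bud. The gut, the pharynx and the airways are lined by endoderm, a separate germ layer that shares the junction genes. Surface ectoderm depends on the transcription factor p63, encoded by Trp63, and endoderm on the Foxa factors.

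The epithelial spots summed to 1473651 UMIs and the other spots to 42884959. A single epithelial spot held 8256 to 45717 UMIs with a median of 22722.5, against a median of 27323 in the other spots, and the median number of genes was 5747 and 6187. After every spot was thinned to 5000 UMIs the medians were 2353 genes in epithelial spots and 2324 in other spots. Globin transcripts made up 2.79% of the UMIs in epithelial spots and 5.53% in other spots. The section label is axial skeleton, and the other spots also held heart, neural and liver transcripts at high levels, given further below. Pairs of the 3 arrays share 434 to 704 spot barcodes, which mark positions on the array.

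Of 12777 genes with at least 100 UMIs over the section, 453 (3.55%) had a CPM (UMIs per 1000000 of the summed spots) at least 2 times as high in epithelial spots, and 1199 (9.38%) had at most 0.5 times the CPM of the other spots. The interval of the ratio lay above 1 for 418 of the higher genes and below 1 for 885 of the lower ones. With globin, mitochondrial and ribosomal protein genes left out of the totals, 437 genes were higher and 1238 lower. Only 229 of the 453 higher genes had a UMI in at least 25% of the epithelial spots, and 224 were carried by fewer. The genes were chosen by the same spots that were scored, so these shares are a background for the gene lists and not a result. In bulk spots, fewer cells of a type and less RNA per cell cannot be told apart.

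The genes that seal and polarise epithelial cells were higher throughout the list. All 24 genes of a list of epithelial junctions and polarity had a ratio of at least 2, among them the 19 with at least 100 UMIs, whose median log2 ratio was 4.26 against 0.07 over all genes considered. Their summed level was 1116 CPM in epithelial spots and 96.5 CPM in other spots. By spot it was 0 CPM in the lowest, 1016 CPM in the median and 2641 CPM in the highest epithelial spot, against a median of 68.8 CPM and a highest value of 1980 CPM in other spots. The groups thus overlapped, but 59 of 62 epithelial spots lay above the 95th percentile of the other spots, and 5 of 1499 other spots reached the epithelial median.

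The plot of junction genes by score rank also shows how the level fell past the threshold. The 62 spots that follow the epithelial ones in the ranking held 468 CPM, the 62 after those held 179 CPM and the remaining 1375 spots held 78.2 CPM. The same order held for simple keratins, at 440 CPM in epithelial spots and then 277, 109 and 63.7 CPM.

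**Figure D1:**
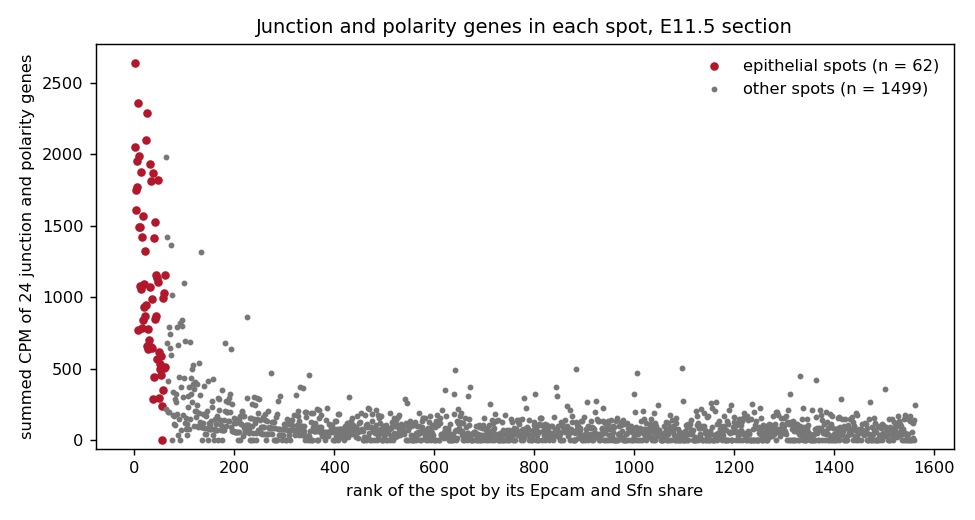
Summed CPM of 24 junction and polarity genes in each spot of the E11.5 section (vertical axis) against the rank of the spot by its Epcam and Sfn share (horizontal axis). The 62 epithelial spots (red) have a median of 1016 CPM and the 1499 other spots (grey) a median of 68.8 CPM, with the high grey points gathered just past the threshold.

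Claudins, the strand proteins of tight junctions, were found in most of the spots. Cldn7 had 163 UMIs in epithelial spots and 276 in other spots, 111 and 6.44 CPM, a ratio of 17.2 (95% interval 14.1 to 20.9). It was detected in 52 of 62 epithelial spots (83.9%) and in 13.7% of other spots. Cldn4 stood at 75.3 CPM in epithelial spots and 2.61 CPM in other spots (ratio 28.8, 21.98 to 37.8), Cldn3 at 53.6 and 2.47 CPM (21.7, 16.0 to 29.3) and Cldn6 at 58.4 and 3.05 CPM (19.1, 14.4 to 25.3). Cldn4 was detected in 75.8% of epithelial spots and 5.87% of other spots, and in 27.4% and 1.41% after thinning. Each of these 3 genes was present in at least 34 epithelial spots, and none of them rests on a few spots. Claudins are a family of related sequences, and how reads that match several members were counted is not given in the sources used here.

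Cdh1, which encodes the adherens junction protein E-cadherin, had 65.8 CPM in epithelial spots and 3.05 CPM in other spots (ratio 21.5), with UMIs in 45 of the 62. Crb3, an apical polarity protein, had 27.1 and 1.52 CPM (17.9), and Rab25 and Ap1m2, which sort membrane proteins in polarised epithelia, had ratios of 27.6 and 27.1. Spint1 and Prss8, an inhibitor of surface proteases and a membrane protease, had ratios of 20.5 and 13.3. The lowest ratios of the list belonged to Lsr (2.87), Cldn1 (3.38), Llgl2 (3.49) and F11r (3.59). F11r, which blood and endothelial cells express as well, was present in 25.8% of other spots, and Cldn1, of which the section held few UMIs, in 8 epithelial spots.

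The promoters of Cldn4 and Cldn3, neighbours on chromosome 5 that were both higher, are shown with that of Mir205hg to give the sequence beside 3 of the widely detected genes. They are RefSeq windows of build GRCm38.p6, from 250 bases before to 50 after the start, 5′ to 3′ on the strand of the gene. Cldn4 is chr5:134946885-134947184 on the minus strand, Cldn3 is chr5:134985964-134986263 on the plus strand and Mir205hg is chr1:193510161-193510460 on the minus strand. Capitals mark matches to GCCNNNGGC, the core bound by AP-2 factors, searched on both strands. The Cldn4 window holds no match and each of the others 1.
Cldn4: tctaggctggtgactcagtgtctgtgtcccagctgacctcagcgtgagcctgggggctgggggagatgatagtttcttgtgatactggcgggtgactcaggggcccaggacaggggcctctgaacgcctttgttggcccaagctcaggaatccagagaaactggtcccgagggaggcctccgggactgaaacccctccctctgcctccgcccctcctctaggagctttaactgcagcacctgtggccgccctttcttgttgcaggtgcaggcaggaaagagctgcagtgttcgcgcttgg
Cldn3: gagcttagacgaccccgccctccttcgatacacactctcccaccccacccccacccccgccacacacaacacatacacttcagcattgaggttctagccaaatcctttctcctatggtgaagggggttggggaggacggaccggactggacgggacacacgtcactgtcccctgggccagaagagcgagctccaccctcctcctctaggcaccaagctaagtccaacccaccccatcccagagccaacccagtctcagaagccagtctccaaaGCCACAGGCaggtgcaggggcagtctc
Mir205hg: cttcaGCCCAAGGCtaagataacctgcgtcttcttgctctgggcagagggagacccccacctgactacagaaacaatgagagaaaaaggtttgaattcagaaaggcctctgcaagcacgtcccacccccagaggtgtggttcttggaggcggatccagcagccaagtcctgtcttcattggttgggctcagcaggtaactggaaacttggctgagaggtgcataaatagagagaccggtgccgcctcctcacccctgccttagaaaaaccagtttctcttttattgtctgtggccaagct
The AP-2 core was present in 4 of 16 promoters of the 20 named genes (13 genes in the table), in 7 of 21 of the junction list (33.3%) and in 16.6% of all 32851 promoters. It was in 1 of 5 promoters of the desmosome list and 2 of 10 of the epithelial transcription factor list (20% each). Both Marveld2 windows of the junction list overlap and hold the same match, which was counted for each. The core bound by Grainyhead-like factors, AACCGGTT on both strands, was in 0 of 16, 0 of 21, 0 of 5 and 0 of 10 of these windows. Over all promoters the share was 0.146%, and the counts say only that these letters are not in these windows.

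Mir205hg, the host transcript of the miR-205 hairpin, was among the 20 widely detected genes with the largest ratios. It is a long non-coding RNA at chr1:193506460-193510210, and both mature arms of miR-205 lie inside it. The host had 113 UMIs in epithelial spots and 180 in other spots, 76.7 and 4.20 CPM (ratio 18.3, 14.3 to 23.2), and was detected in 40 of 62 epithelial spots. It stood at 114 CPM in the spots with surface ectoderm genes defined further below and at 8.09 CPM in those with endoderm genes. Mature miRNAs are not captured by their poly(A) tail and were not measured. The 2 arms, with the seed (bases 2 to 8) in capitals, are as follows.
miR-205-5p: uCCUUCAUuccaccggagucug
miR-205-3p: gAUUUCAGuggagugaagcuca
Known targets of the miR-205 family in other cells include Zeb1 and Zeb2, repressors of E-cadherin. Zeb1 had 17.6 CPM in epithelial spots and 39.9 CPM in other spots (ratio 0.442, 0.288 to 0.650), while Zeb2 had 35.97 and 32.2 CPM (1.12, 0.831 to 1.47), which does not differ beyond counting error.

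Esrp1 and Esrp2, the splicing regulators that set the epithelial forms of many transcripts, had 90.9 and 33.3 CPM in epithelial spots, against 2.98 and 1.63 CPM in other spots. Their ratios were 30.5 (23.7 to 39.1) and 20.4 (13.8 to 29.8). Esrp1 was present in 46 epithelial spots, at 62.6 CPM in the median spot and 370 CPM in the highest. Tmem54, a membrane protein, had a ratio of 29.1.

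**Figure D2:**
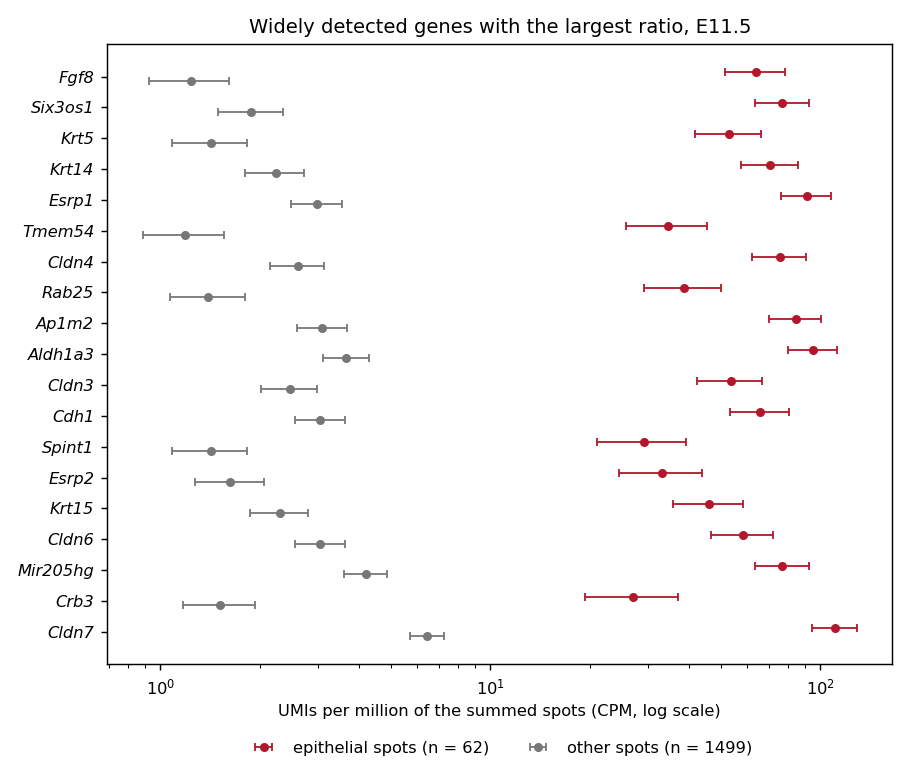
CPM (log axis) of 19 of the 20 genes with the largest ratio among those with a UMI in at least 25% of epithelial spots, in the sum of the 62 epithelial spots (red) and of the 1499 other spots (grey), with exact Poisson 95% intervals. The red points lie between 27.1 CPM (Crb3) and 111 CPM (Cldn7), the grey ones between 1.19 CPM (Tmem54) and 6.44 CPM (Cldn7).

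Keratins, the intermediate filaments of epithelia, split into a broad and a restricted set. The simple keratins of single-layered epithelia were widespread. Krt18 had 175 CPM in epithelial spots and 26.7 CPM in other spots (ratio 6.56), Krt8 155 and 26.4 CPM (5.89), Krt7 70.6 and 10.7 CPM (6.59) and Krt19 39.4 and 9.58 CPM (4.11), and Krt8 was present in 53 epithelial spots. The stratified keratins of the basal epidermis had larger ratios in fewer spots. Krt5 had 52.9 CPM in epithelial spots and 1.42 CPM in other spots (37.2, 26.3 to 52.9), with UMIs in 22 spots and 29.5% of them in a single spot. Krt14 had 70.6 and 2.24 CPM (31.5, 23.7 to 42.05), in 28 spots (45.2%, exact binomial interval 32.5 to 58.3), and Krt15 had 46.1 and 2.31 CPM (19.99) in 24 spots. Krt5 and Krt14, which pair into 1 filament, were found together in 15 spots, Krt5 alone in 7 and Krt14 alone in 13. Krt13 and Krt6a, of later layers, had 1 and 3 UMIs in epithelial spots, against 3 and 2 in other spots, and Krt4 had none in the section.

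Desmosome genes followed the keratins only in part. Of 10 desmosome and hemidesmosome genes with at least 100 UMIs, 5 were higher and 5 were neither higher nor lower, with a median log2 ratio of 1.40. Perp, a p63 target of the desmosome, had 103 CPM in epithelial spots and 7.67 CPM in other spots (ratio 13.4), the plakophilin Pkp3 26.5 and 1.56 CPM (16.9) and desmoplakin, Dsp, 133 and 23.6 CPM (5.63). Dsg2 and Dsc2, the desmosomal cadherins of simple epithelia, had ratios of 4.01 and 3.62. Jup (1.87), Pkp2 (1.21), Itga6 (1.498), Dst (1.13) and Plec (0.941) did not reach 2. Ppl and Evpl, plakins that later form part of the cornified envelope, had 21 or more UMIs in epithelial spots each and ratios of 18.0 and 9.26, but under 100 UMIs over the section.

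Of 10 epithelial transcription factors with at least 100 UMIs, 9 were higher, with a median log2 ratio of 2.22. Grhl3, a Grainyhead-like factor of the skin barrier and neural tube closure, had 21.7 CPM in epithelial spots and 1.68 CPM in other spots (ratio 12.9). Tfap2c, an AP-2 factor of surface ectoderm, had 25.8 and 2.70 CPM (9.53). Klf5, Dlx5 and Dlx6 had ratios of 6.03, 4.63 and 4.53, while Gata3 (2.39), Msx2 (2.34) and Tfap2a (2.29) were closer to the threshold and Tfap2b (1.85) was below it. The master regulator Trp63 fell short of 100 UMIs but had 46 UMIs in 26 epithelial spots, against 40 UMIs in 38 of the 1499 other spots (ratio 33.5, 21.4 to 52.5). Grhl2 had 30 UMIs in epithelial spots and 37 in other spots (23.6), whereas Grhl1 had 2 and 63 (0.924).

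The label was checked with genes that did not choose the spots. A spot was counted as carrying surface ectoderm genes with at least 2 UMIs of Trp63, Krt5, Krt14, Krt15 and Wnt6, and endoderm genes with at least 2 UMIs over a list of 5 genes that includes Foxa1, Foxa2, Nkx2-1 and Sox17. Of the 62 epithelial spots, 34 carried only surface ectoderm genes (54.8%), 9 only endoderm genes (14.5%), 2 both and 17 neither. In the other spots, 101 of 1499 (6.74%) passed the surface minimum and 135 (9.01%) the endoderm minimum. By these genes the proposed name goes with the 34 spots and not with the 9 that carried endoderm genes alone. The classes are counts over short lists and do not fix the germ layer of a spot.

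The 34 surface spots and the 9 endoderm spots both held the junction genes, at 999 and 1646 CPM. They held different keratins, with stratified keratins, which the split itself used, at 315 CPM in surface spots and 4.0 CPM in endoderm spots, and simple keratins at 304 and 865.5 CPM. As a description of the genes that chose the spots, Sfn was in 33 of the 34 surface spots and 1 of the 9 endoderm spots, and Epcam in 28 and in all 9. Sfn stood at 338 CPM in surface spots and 8.09 CPM in endoderm spots, and Epcam at 175 and 417 CPM. Since a spot low in one of these genes had to be high in the other to be taken, the opposite levels are partly fixed by the choice.

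**Figure D3:**
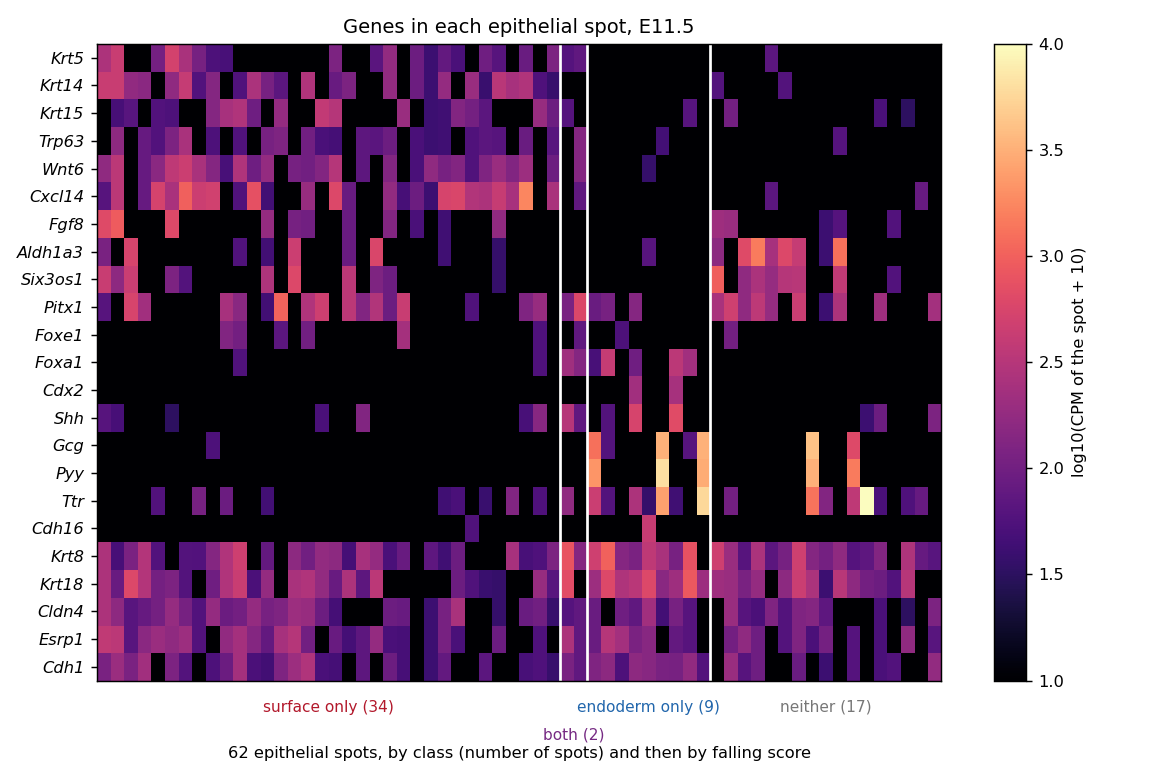
Level of 23 genes (rows) in each of the 62 epithelial spots (columns), as log10 of the CPM of the spot plus 10, with spots ordered by class (34 surface only, 2 both, 9 endoderm only, 17 neither) and then by falling score. Krt14 is in 26 and Wnt6 in 28 of the 34 surface spots, and Foxa1 is in 5 of the 9 endoderm spots. Aldh1a3 and Six3os1 are each in 8 of the 17 spots with neither list, and in 10 and 11 of the remaining epithelial spots. Gcg and Pyy appear together in 5 spots, while Krt8, Cldn4, Esrp1 and Cdh1 run across all classes.

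Most of the listed signals sent by epithelium were higher. Of 17 listed ligands with at least 100 UMIs, 11 were higher and 1, Edn1, was lower. Fgf8, the growth factor of the limb ridge and of facial and pharyngeal epithelium, had the largest ratio of all widely detected genes, with 94 UMIs in epithelial spots and 53 in other spots, 63.8 and 1.24 CPM (51.6, 36.5 to 73.7). It was present in 16 of 62 epithelial spots and in 3.27% of other spots, and 28 of its UMIs came from 1 spot, without which the ratio was 37.4. At least 5 Fgf8 UMIs were held by 5 epithelial spots, and the most in any of the 1499 other spots was 2.

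Wnt6, an early Wnt of surface ectoderm, had 79.4 CPM in epithelial spots and 6.34 CPM in other spots (ratio 12.52) and was used in the split above. The chemokine Cxcl14 had 162 and 14.9 CPM (10.8, 9.27 to 12.6), with 235 of its 238 UMIs in 26 surface spots. Pdgfa and Pdgfc, which act on the mesenchyme under an epithelium, had ratios of 5.30 and 3.30, and the Notch ligand Jag2 had 2.50. Wnt4 (3.35), Fgf9 (3.62), Bmp7 (2.16) and Bmp4 (2.02) were higher, and Wnt7b (1.98), Bmp2 (1.18), Kitl (0.887), Wnt7a (0.719) and Rspo1 (0.718) were not. Wnt9b and Wnt10a, which had under 100 UMIs, had 30 and 13 UMIs in epithelial spots and 35 and 29 in other spots, with ratios of 24.9 and 13.05.

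Receptors and response genes of those ligands had smaller ratios. Of 22, 8 were higher and none was lower, with a median log2 ratio of 0.83 and 2117 CPM in epithelial spots, against 1337 CPM in other spots. The FGF response genes Etv4, Spry1, Dusp6, Etv5 and Spry4 had ratios of 4.03, 3.66, 2.52, 2.47 and 2.17. Msx1, a target of BMP signals in facial and limb tissue, had 217 and 50.8 CPM (4.28), and the Wnt effector Lef1 had a ratio of 2.32. The receptors Fgfr2 (1.73), Fgfr1 (1.24), Pdgfra (0.848) and Fgfr3 (0.674) and the Hedgehog targets Ptch1 (1.51) and Gli1 (1.43) lay between the thresholds.

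The basement membrane list was divided in the same way. Of 19 genes with at least 100 UMIs, 5 were higher. Lama5, a laminin chain of epithelial basement membranes, had 140 UMIs in epithelial spots and 703 in other spots, a ratio of 5.80. Frem2 and Fras1, of the Fraser complex that holds embryonic skin to the dermis, had ratios of 6.36 and 2.30, and nephronectin, Npnt, 3.46. The 14 genes that were neither higher nor lower include Col4a1 (0.607), Col4a2 (0.691), Lama4 (0.631), Nid1 (0.846) and Hspg2 (0.895). The summed list was therefore nearly level, at 1169 CPM in epithelial spots and 1131 CPM in other spots.

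**Figure D4:**
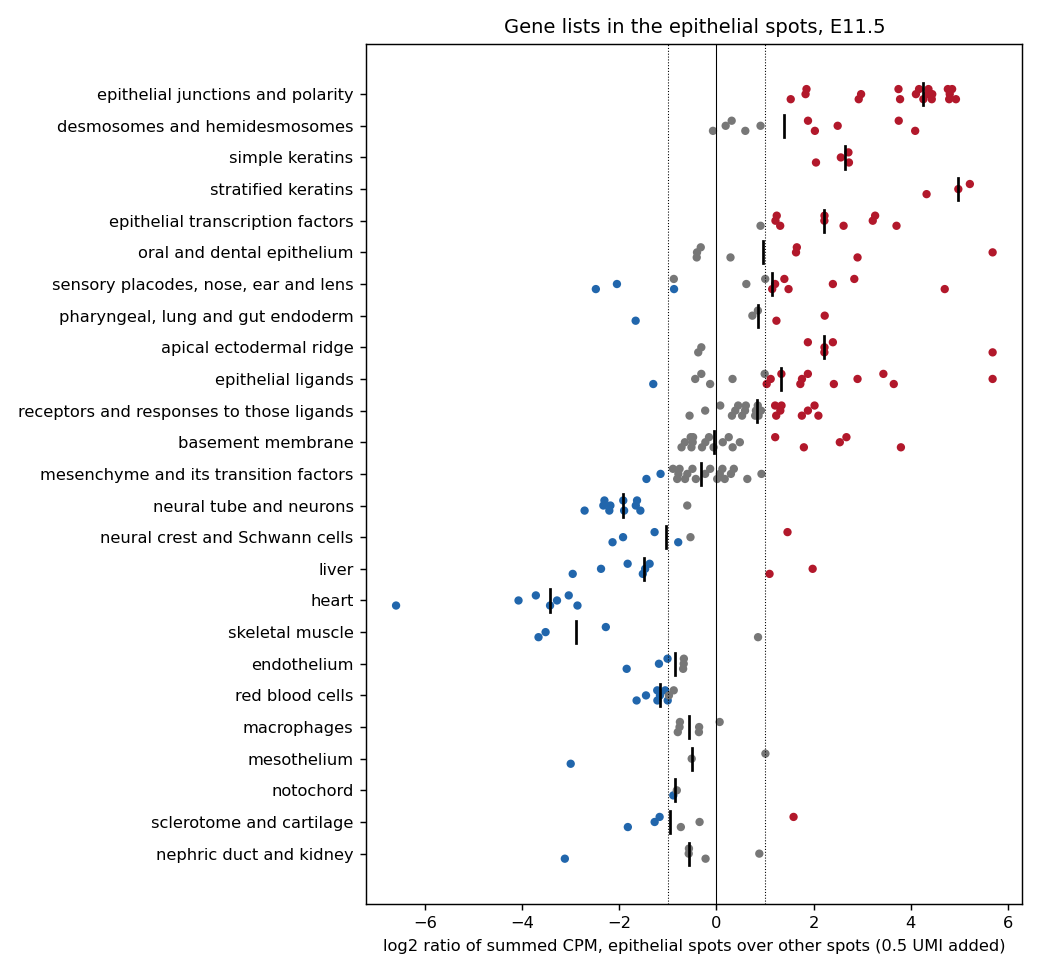
Log2 ratio of summed CPM in epithelial spots over other spots (horizontal axis, 0.5 UMI added to each sum) for the genes of each list with at least 100 UMIs; each point is a gene, the black bar is the median of the list, red and blue mark ratios of at least 2 and at most 0.5 without the added UMI, and dotted lines mark log2 ratios of 1 and -1. Junction genes lie furthest to the right (median 4.26 over 19 genes) after the 3 stratified keratins (4.98), and heart genes furthest to the left (median -3.42).

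Genes of the facial and nasal ectoderm marked part of the spots. Aldh1a3, a retinoic acid synthesising enzyme of the nasal and optic region, had 140 UMIs in epithelial spots and 157 in other spots (ratio 25.95, 20.5 to 32.8), but in 18 spots and with 35 UMIs in 1 of them. Six3os1, a transcript antisense to the forebrain and lens factor Six3, had 76.7 and 1.89 CPM (40.6) in 19 spots, and Six3 itself, under 100 UMIs, had 37 and 14 UMIs (76.9, 40.6 to 154). Whether the counting used strand is not given in the sources used here, so reads of Six3 and Six3os1 cannot be told apart. Aldh1a3 and Six3os1 shared 14 spots, while 4 spots had only Aldh1a3 and 5 only Six3os1.

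Of 13 listed genes of the sensory placodes with at least 100 UMIs, 7 were higher and 3 were lower. Besides Aldh1a3, the higher genes included Sp8, Fbxo2, Eya1, Eya2 and Emx2, with ratios of 5.18, 2.73, 2.61, 2.29 and 2.14. The ear genes Pax8 and Oc90 were lower (0.162 and 0.469), as was the lens crystallin Cryab (0.174), and the lens genes Cryaa and Foxe3 had 0 UMIs in the section. In the 17 spots with neither surface nor endoderm genes, the placode list stood at 725 CPM, against 278 CPM in surface spots, 97.1 CPM in endoderm spots and 165 CPM in the other spots of the section. Aldh1a3 alone had 264 CPM in those 17 spots, from 8 of them. The same 17 spots are mixed, and include those with 97 and 12 Gcg UMIs and that with 1251 Ttr UMIs, described below.

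Oral and dental genes were mixed. Pitx1, of the oral ectoderm and hindlimb, had 111 CPM in epithelial spots and 35.9 CPM in other spots (3.10) and was present in 32 spots, and Dlx2 had a ratio of 3.09. Sox2 (1.21), Irx1 (0.726) and Isl1 (0.747) lay between the thresholds, and 4 of 8 genes with at least 100 UMIs were higher. Foxe1, of the thyroid and palate, had 17 UMIs in 9 epithelial spots and 31 UMIs in 30 other spots (16.0), and Foxi3 had none in the section. Among genes of the limb ridge, 5 of 7 with at least 100 UMIs were higher, but 1 of them, Fgf8, is also on the oral list, and the ridge gene Fgf4 had 1 UMI in epithelial spots and 13 in other spots. Neither list separates mouth from limb here, and spot positions were not used.

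Some spots carried genes of the gut and pancreas that the label does not name. These spots were noticed and grouped after their values were seen. Gcg, which encodes glucagon, had 302 UMIs in epithelial spots and 257 in other spots, 205 and 5.99 CPM (34.2), and Pyy, which encodes the hormone peptide YY, had 402 and 317 UMIs (36.9). Of the 62 spots, 5 held at least 10 UMIs of the pair summed, at 97, 92, 66, 32 and 12 Gcg UMIs, and 4 other spots of the section did so. In the same order these 5 spots held 75, 181, 62, 55 and 29 Pyy UMIs, 7, 9, 5, 20 and 5 Epcam UMIs, and 0 Sfn UMIs in each. These 5 spots thus entered on Epcam alone.

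Cltrn, collectrin of kidney and pancreatic islets, and Slc38a5, an amino acid transporter, were present in all 5 of those spots. Cltrn had 1 to 21 UMIs there and Slc38a5 11 to 82. Pdx1, the pancreas and duodenum factor, chosen after values were seen, had 9 UMIs in epithelial spots, all in 3 endoderm spots, and 7 in the 1499 other spots (37.4, 12.4 to 118). In the 5 spots rich in Gcg and Pyy, Pdx1 had 6, 0, 0, 0 and 0 UMIs. Neurog3 and Ptf1a, looked at with it for their part in the pancreas, had 1 UMI each in epithelial spots, against 92 and 77 in other spots. Which tissue of the other spots held those UMIs was not examined. Without the 5 spots Pyy had 0 UMIs in the remaining 57 and the ratio of Gcg was 0.369.

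Cdx2, the intestinal homeobox factor, had 17 UMIs in epithelial spots, 10 in one spot and 7 in another, and 11 UMIs over 11 other spots. The same 2 spots held 25 and 19 of the 67 Shh UMIs of the epithelial spots and 4 and 10 Foxa1 UMIs. Shh, a ligand of gut, floor plate and oral epithelium, had 45.5 CPM in epithelial spots and 6.11 CPM in other spots (7.44), and 4.81 without its highest spot. Foxa1 had 23.8 and 5.13 CPM (4.63, 3.14 to 6.64) and Foxa2 8.14 and 1.77 CPM (4.59, 2.27 to 8.501). Of 5 listed endoderm genes with at least 100 UMIs, Foxa1 and Ripply3 (2.24) were higher, and Sox17 (0.271), which endothelium expresses as well, was lower.

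Single spots decided 2 further values. Cdh16, a cadherin of kidney and thyroid epithelium, had 16 UMIs in epithelial spots, 15 of them in 1 spot with 12 Epcam UMIs, and 83 in other spots. That spot was among the 9 endoderm spots but held 0 Foxa1 and 0 Foxa2 UMIs. Ttr, transthyretin, of liver, yolk sac and choroid plexus, had 1529 UMIs in epithelial spots, 1251 of them in 1 spot with 8 Sfn and 0 Epcam UMIs. Its ratio was 3.94 with that spot and 0.733 without it, and the highest other spot held 4107. The spot with 1251 Ttr UMIs held 0 Alb and 0 Afp UMIs. In the order of falling Gcg used above, the 5 spots rich in Gcg and Pyy held 31, 72, 119, 11 and 7 Ttr UMIs. In that order they also held 16, 15, 7, 11 and 13 Afp UMIs and 4, 1, 0, 0 and 2 Alb UMIs. The other liver genes were lower except Serpina1a (2.10), with Alb at 0.125 and Afp at 0.280, so that 6 of 8 listed liver genes with at least 100 UMIs were lower while the summed list was higher, at 1191 CPM in epithelial spots and 761 CPM in other spots.

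Genes of other tissues were lower by varying amounts. All 7 heart genes were lower, at 170 CPM in epithelial spots and 1812 CPM in other spots, and 10 of 11 neural genes were lower, at 433 and 1866 CPM. Of the 10 genes with the lowest ratios, the atrial hormone Nppa had 1 UMI in epithelial spots and 4215 in other spots, Myl2, a ventricular myosin light chain, 35 and 17392, and titin, Ttn, 4 and 2045. Smpx, Hspb7, Csrp3, Tnnc1, Ankrd1 and Cnn1, all of muscle, and the neuronal transcript Mir124-2hg made up the rest, with ratios of at most 0.0657. The skeletal muscle list stood at 50.9 and 483 CPM, with Myod1 at 0 UMIs in epithelial spots and 166 in other spots. Of 9 red cell genes 7 were lower and of 6 endothelial genes 3.

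Mesenchymal genes were abundant in the epithelial spots too, and a spot can hold several tissues. The 20 listed genes summed to 2568 CPM in epithelial spots and 3551 CPM in other spots, and 2 of them were lower, Dcn (0.359) and Zeb1. A count of 2 of 20 is near the share over all 12777 genes considered, of which 9.38% were lower. Vim had 345 and 595 CPM (0.580), Col1a1 112 and 190 CPM (0.589) and Cdh2, N-cadherin, 55.6 and 104 CPM (0.535), whereas Twist1 had 113 and 59.8 CPM (1.90) and Prrx2 a ratio of 1.55. The surface spots held 3017 CPM of this list and the endoderm spots 1763 CPM. None of 6 macrophage genes was higher or lower, with C1qb at 23.8 and 30.9 CPM. Of 6 neural crest genes 4 were lower, while Erbb3, which simple epithelia express as well, was higher (2.73), and of 6 sclerotome and cartilage genes 3 were lower, while Pax9, also of pharyngeal endoderm, was higher (2.98). The mesothelium, notochord and kidney lists had 3, 2 and 5 genes with at least 100 UMIs, of which 1 each was lower and none higher. The part of these tissues in the other ratios was not tested.

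Across the 62 spots, the genes whose CPM went most with the score were Fgf8 (Pearson r = 0.65), Gadd45g (0.63), Esrp2 (0.62), Esrp1 (0.62) and Ablim1 (0.59), of 8203 genes ranked. This is a description over spots of 1 library that share its depth, and the score itself is a share of the same totals.

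The same rule was applied to the E12.5 and E13.5 sections, which did not choose the genes named above. It took 41 of 1014 spots at E12.5 and 54 of 1360 at E13.5. Among genes with at least 100 UMIs in the section, 300 (2.49% of 12042) and 647 (5.24% of 12337) had a ratio of at least 2. Of the 20 named genes, 17 at E12.5 and 16 at E13.5 had such a ratio, whatever their UMIs, among them 3 of the 4 and 9 of the 10 with at least 100 UMIs in the section. The share of all genes without a UMI minimum is not given for these sections. Of the 453 genes higher at E11.5, 81 were higher at E12.5 (17.9% of the E11.5 genes and 27.0% of the E12.5 genes) and 118 at E13.5 (26.05% and 18.2%). Only genes with at least 100 UMIs in the later section could count as higher there, so these shares also reflect that minimum.

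Of the 24 junction genes, 21 at E12.5 and 23 at E13.5 had a ratio of at least 2, whatever their UMIs. Of those with at least 100 UMIs in the section, 1 of 3 and 15 of 16 did. Esrp1 had ratios of 30.5, 39.3 and 32.2 in order of stage, Cdh1 21.5, 30.1 and 31.1 and Cldn7 17.2, 17.0 and 16.7. Krt14 had 70.6 CPM in the top spots and 2.24 CPM in the others at E11.5, 208 and 4.90 CPM at E12.5, and 1.17 and 1.22 CPM at E13.5. Krt8 had ratios of 5.89, 2.34 and 5.48. Fgf8 and Six3os1 had 0 UMIs in the top spots of both later sections, and since 3 UMIs there equal 3.02 and 3.51 CPM, a level like that of the other spots (at most 1.67 CPM) was not detectable.

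The make-up of the spots differed with the section. Only surface genes were carried by 34 of 62 spots at E11.5, 36 of 41 at E12.5 and 3 of 54 at E13.5, and only endoderm genes by 9, 1 and 34. The surface list stood at 280, 981 and 194 CPM in the top spots and at 13.2, 33.8 and 21.1 CPM in the others, and the endoderm list at 39.4, 9.05 and 398 CPM and at 15.3, 23.0 and 19.8 CPM. Nkx2-1, of lung and thyroid, had 3 UMIs in the top spots at E11.5 and 197 at E13.5, where its ratio was 39.7. Stage, embryo and plane of section cannot be told apart with 1 section each.

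**Figure D5:**
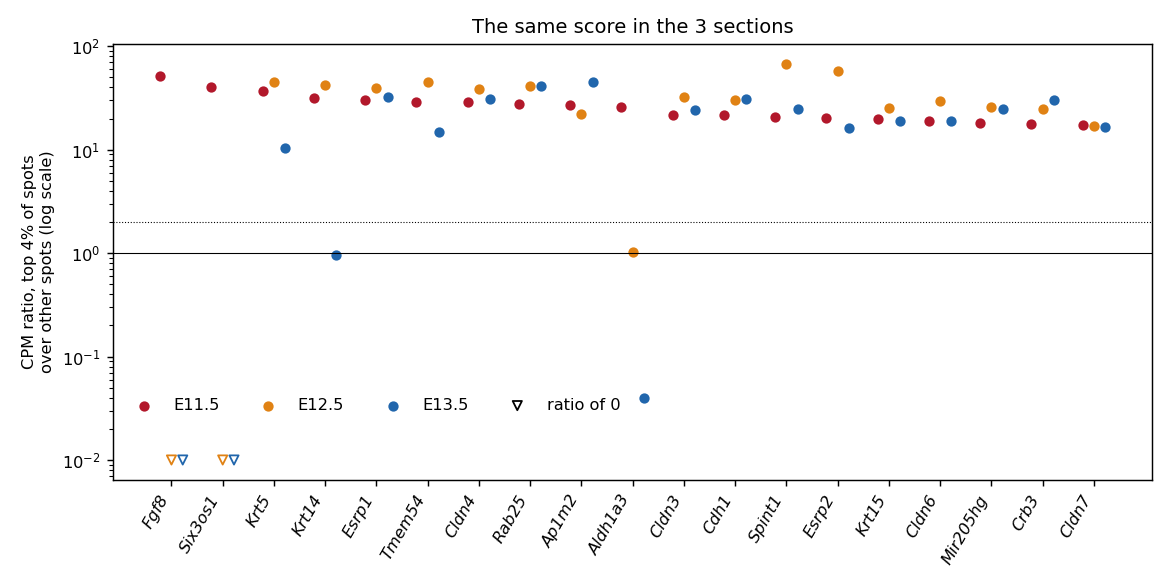
Ratio of CPM (log axis) in the top 4% of spots by Epcam and Sfn over the other spots, for 19 of the 20 genes of largest ratio at E11.5, in the sections of E11.5 (red), E12.5 (orange) and E13.5 (blue); open triangles stand for a ratio of 0, the dotted line for 2. Most genes stay between 10 and 100 in all 3 sections, whereas Fgf8, Six3os1 and Aldh1a3 are at 0, 0 and 1.01 at E12.5 and Krt14 at 0.96 at E13.5.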

How the data were processed

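For each section the authors deposited raw UMI counts by gene and by spot, and per the file headers Space Ranger 1.2.0 wrote them. The submitters' processing notes name STAR and mm10. The annotation and strand setting are not stated in them. The deposited barcode and feature tables give spot and gene names only. The matrices list 32285 genes, and 78 entries with a repeated symbol were not named. The members and gene lists were chosen with earlier results of these data known.

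Spots under 1000 UMIs (2 of the E11.5 section and 5 of the E13.5 section) were left out, which kept 3935 of 3942. UMIs were summed over epithelial and other spots and scaled to CPM. Ratios carry exact conditional binomial 95% intervals, and single values exact Poisson or binomial ones, for counting error only, since spots of 1 section are not replicates. Log2 ratios used a pseudocount of 0.5 UMI. Genes with at least 100 UMIs over the section were considered, without the 2 scoring genes. Spots can hold several cell types, and no doublet caller applies. Named genes were the 20 with the largest ratio in at least 25% of epithelial spots, the 10 largest in fewer, the 10 lowest with at least 1000 UMIs, and the listed genes, without unnamed and sex-linked genes and those of globins, mitochondria and ribosomal proteins. Beyond those already named, the 10 in few spots include Serpina1c (8.16), Nepn (7.85), Gjb2 (7.57), Dmrt3 (7.56) and Upk1a (6.79). Genes added after values were seen are said to be so, and some listed genes are not reported here. Sequences are from RefSeq, GRCm38.p6. Python 3.11.15, numpy 2.4.6, scipy 1.17.1, pandas 2.3.3 and matplotlib 3.10.9 were used, and the steps were tested on simulated data. Alternatives varied the share of spots, the scoring genes, the UMI minimums, the scaling, the ratio and the members.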

Additional observations from a re-analysis of the deposited data

Results flagged for a closer look

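The 242 named or listed genes with at least 100 UMIs at E11.5 were compared with the later sections under the same rule. Of these, 15 had a ratio of at least 2 in one section and at most 0.5 in the other, with at least 100 UMIs in both, and the differences were not tested, since each stage is 1 section. The 242 include genes named for their extreme ratios at E11.5. No share over all genes is given beside the 15, so the count is a list and not a result. Aldh1a3 had a ratio of 25.95 at E11.5 and 0.0398 at E13.5, with 1.17 CPM in the top spots and 29.4 CPM in the others there. Gjb2, a connexin of epidermis and inner ear, had 7.57 at E11.5 and 0 at E13.5 (0 and 4.70 CPM, where 3 UMIs equal 3.51 CPM), and 35.9 at E12.5. Shh had 7.44 at E11.5, 0.168 at E12.5 (3.02 and 18.0 CPM) and 20.9 at E13.5. Cnn1, a smooth muscle calponin that was among the lowest at E11.5 (0.0657), had 3.01 at E13.5 (73.8 and 24.6 CPM). At E12.5, Foxa1 (4.63 at E11.5) and Dlx5 (4.63) had a ratio of 0, with 0 UMIs in the top spots and 244 and 101 in the others, and Pitx1 (3.10) had 0.0746, Fgf9 (3.62) 0.180, Alx1 (2.20) 0.228 and Pax9 (2.98) 0.410. At E13.5, Dlx5 and Emx2 (2.14) had a ratio of 0, with 0 UMIs in the top spots and 169 and 122 in the others, and Eya1 (2.61) had 0.196, Spry4 (2.17) 0.319, Wnt6 (12.52) 0.335 and Lef1 (2.32) 0.344. Of the 15 genes, Wnt6, Lef1, Fgf9, Alx1 and Emx2 had an interval that reached above 1 in that later section, and Spry4 one that reached below 1 at E11.5 (0.848 to 4.64), so for these the opposite direction is within counting error.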

How the results depend on the processing

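No paired analysis was possible because each stage has 1 section and no result comes from a test. With a minimum of 20, 1 or 500 UMIs per gene in place of 100, 1057, 1999 or 102 genes were higher and 2157, 6553 or 527 lower, and 8, 10 or 1 desmosome genes and 14, 15 or 1 transcription factors were higher. At 500 UMIs, 3 junction genes and 5 ligands were higher. With a ratio of 1.5 or 3 as the threshold, 1216 or 188 genes were higher, 1988 or 722 lower, and 8 or 0 mesenchymal genes lower. Of the mesenchymal genes, 5 were lower in the top 2% of spots, 1 in the top 8% and 4 with a score from Epcam alone. With a minimum of 1 UMI per list, 11 spots carried both lists and 9 neither, and with 3 UMIs 0 carried both. The other 106 alternative values of these counts stayed within 1.5 times. Of the ratios of named genes, 302 stayed within their interval under an alternative, 86 left it in the same direction and 12 changed direction, as follows. With a score from Sfn alone, the ratios of Pyy, Gcg, Serpina1c and Nepn became 0, 0.203, 0 and 0.508. In the 34 surface spots alone, which were set apart after the data were seen, those of Pyy, Gcg, Cltrn, Serpina1c and Nepn became 0, 0.206, 0, 0 and 0. Without the 5 spots rich in Gcg and Pyy, also set apart after the data were seen, those of Pyy, Gcg and Cltrn became 0, 0.369 and 0.854. The ratios of the 20 widely detected genes, 17.2 to 51.6, ran from 23.8 to 69.97 against the other spots below the top 12% (added after the data were seen), with 9 up by over 1.5 times. They ran from 9.42 to 42.5 with a score from Epcam alone and from 6.97 to 47.2 with Sfn alone, with 6 and 13 down by over 1.5 times, among them Krt14 at 9.42 and Cldn6 at 6.97. In the surface spots alone they ran from 7.33 to 84.9, in the top 2% from 10.99 to 78.7 and in the top 8% from 14.6 to 31.3, with 7, 4 and 4 moved by over 1.5 times. Such moves numbered 0 with the other 4 alternatives. Removing globin, mitochondrial and ribosomal protein genes from the totals moved the median log2 ratio by -0.02. At this depth 1 UMI in the epithelial sum equals 0.679 CPM, which limits statements on genes with few UMIs.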

Other observations

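Genes of head mesenchyme and of the trunk were looked at after the values were seen, to place the epithelial spots along the body. Alx1 and Barx1, of facial mesenchyme, had 78.7 and 74.0 CPM in epithelial spots and 35.8 and 30.5 CPM in other spots, ratios of 2.20 (1.80 to 2.66) and 2.42 (1.97 to 2.95), in 25 and 32 of the 62 spots. Hoxb9 and Hoxc9, of the trunk, had 20 and 6 UMIs in epithelial spots, 13.6 and 4.07 CPM. Other spots held 1866 and 1761 UMIs, 43.5 and 41.1 CPM, which gave ratios of 0.312 and 0.0992. Of the 20 Hoxb9 UMIs, 16 came from 1 of the 34 surface spots. Alx1 had 0 CPM in the 9 endoderm spots and 86.4 CPM in the 34 surface spots, while Barx1, which the stomach expresses as well, had 72.8 and 70.4 CPM. Spot positions were not used. Whether these values reflect body level or the tissues in the spots was not tested, nor was their part in the other ratios.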
